A study of Homo sapiens with 8 samples.

Results

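The genes described here are 10 genes of the integrated stress response, ATF4, ATF3, DDIT3, CEBPB, ASNS, CHAC1, TRIB3, DDIT4, SESN2 and PPP1R15A, out of 43317 genes on the array. They were taken by name, with every probe that carries the name, and were chosen by their log2 ratios on the bisamide arrays, where several had been seen among the highest genes. The ratios on those arrays are therefore a description and carry no test. The array held 14 probes for them, of which 4 belong to ATF3, 2 to CHAC1 and 1 to each of the other 8 genes. The brightest probe stands for each gene, and the RefSeq symbols of all 10 probes matched the names on the array. All 10 genes were well above background in both channels of all 8 arrays.

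RNA of mock cells (Cy3) and of treated cells (Cy5) was hybridised together on 8 two-colour arrays, 1 array for each group. PC3, a prostate cancer line, received bisamide for 24 h or 48 h or was transfected with miR-125b-1-3p. Bisamide (CCT251236) is a small molecule described as an inhibitor of PIR (pirin) that came from a screen against the HSF1 stress pathway. The labels list it as a transfection and give no dose. C4-2, which descends from the prostate cancer line LNCaP, received miR-199-3p. 786-O, a renal cancer line, received miR-532-5p or miR-532-3p, and T24, a bladder cancer line, received miR-140-5p or miR-140-3p. Every mock is labelled as having had no transfection, so that no mock is labelled as a control miRNA or as a vehicle. The dyes were never swapped, and all arrays lay on 1 slide. Without a second array of any treatment no p-value was computed for a ratio, and the number of arrays limits its precision.

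The mock RNA was set against markers of each tissue before use. The C4-2 mock had 5 of 5 prostate markers above background, and the PC3 mocks had 3 of 5, with KLK3 (prostate-specific antigen) not above background. The 786-O mocks had 4 of 5 renal markers, with CA9 not above background. The T24 mocks had 1 of 5 urothelial markers above background (UPK1A), while GATA3, UPK1B, UPK2 and UPK3A were not. PAX8 and PAX2, listed here as renal markers, read 390.33 to 422.98 and 550.87 to 619.0 in raw Cy3 signal in the T24 mocks, above the 235.4 to 239.21 and 112.19 to 123.72 of the 786-O mocks. CDH6, NNMT and CA9 were not above background in T24, so that 2 of 5 renal markers were, while CDH6 and NNMT were above it in 786-O. Values of T24 thus rest on RNA whose markers do not mark it as urothelial.

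In the integrated stress response, kinases that sense lack of amino acids, misfolded protein, viral RNA or lack of haem phosphorylate the translation factor eIF2. Most translation then slows, while the mRNA of ATF4 is translated more. ATF4 is a transcription factor that switches on genes for amino acid synthesis and uptake, redox balance and, when stress lasts, cell death. Its own mRNA can rise as well, but the main control lies at translation, which an array of mRNA does not measure. CEBPB, ATF3 and DDIT3 are transcription factors that pair with ATF4 or follow it. ASNS, CHAC1, TRIB3, SESN2 and DDIT4 are among its targets, and PPP1R15A brings the phosphatase that removes the phosphate from eIF2 and ends the response.

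ATF4 binds composite elements shared with the C/EBP family, whose core is written TGATGNAA. These letters were looked for on both strands of the RefSeq promoter windows (GRCh38.p14, 300 bases, from 250 before to 50 after each start), and they overlap no other motif searched because no other was searched. They were present in a window of 3 of the 10 genes, ATF3, CHAC1 and ASNS. Of all 35116 windows of that length 3.62% held them, and of 27305 genes 4.46% held them in at least 1 window. The matches are shown with their surroundings because the ratios of CHAC1 and ASNS were among the highest in bisamide. Capitals mark the match, each line reads along the gene, and the CHAC1 match lies on the opposite strand.
ATF3, chr1:212565216-212565223: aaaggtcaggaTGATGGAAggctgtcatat
CHAC1, chr15:40953262-40953269: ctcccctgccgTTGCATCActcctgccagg
ASNS, chr7:97872469-97872476: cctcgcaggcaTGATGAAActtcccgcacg

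The first base of the match lay at -191 from the start in ATF3, at -209 in CHAC1 and at -68 in ASNS. ATF3 and ASNS each had 2 windows, of which 1 held it. The 250 bases before the start are given whole for the pair of genes with the highest ratios, with the match in capitals.
ASNS, chr7:97872409-97872658, minus strand: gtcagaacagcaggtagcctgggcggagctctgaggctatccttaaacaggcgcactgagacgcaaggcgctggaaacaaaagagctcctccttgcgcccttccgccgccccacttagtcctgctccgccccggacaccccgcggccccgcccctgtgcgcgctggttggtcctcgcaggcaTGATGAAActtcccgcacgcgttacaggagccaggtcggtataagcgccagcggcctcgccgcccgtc
CHAC1, chr15:40953221-40953470, plus strand: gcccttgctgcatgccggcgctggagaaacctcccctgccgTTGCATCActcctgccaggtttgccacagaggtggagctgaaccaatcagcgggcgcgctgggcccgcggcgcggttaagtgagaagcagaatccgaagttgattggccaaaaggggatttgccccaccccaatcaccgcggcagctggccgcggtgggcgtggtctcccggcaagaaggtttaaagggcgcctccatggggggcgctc
A match is a run of letters and not a binding site. In ATF4, DDIT3, CEBPB, TRIB3, DDIT4, SESN2 and PPP1R15A these letters were not in the windows searched.

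With bisamide all 10 genes had a log2 ratio of treated over mock above 0 at 24 h and again at 48 h. Of all genes 57.1% and 57.0% were above 0 on those arrays. Their median was 1.26 at 24 h and 0.67 at 48 h, beside a median of 0.018 over all genes on each of those arrays. At 24 h, 4 of the 10 passed a log2 ratio of 1.5, the size that the study uses, where 0.0676% of all genes did, and none passed -1.5, where 0.0104% did. At 48 h, 2 of the 10 passed 1.5, beside 0.0315% of all genes, and none passed -1.5, beside 0.00526%. A log2 ratio of 1.0 was passed by 6 of the genes at 24 h and by 3 at 48 h, where 0.182% and 0.0946% of all genes passed it, and none passed -1.0, where 0.0156% and 0.021% did. Since the genes were chosen with these arrays in view, nothing is read from the counts. The ranks of the genes ran from 2 to 746 of 19241 at 24 h and from 2 to 5924 of 19020 at 48 h.

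**Figure D1:**
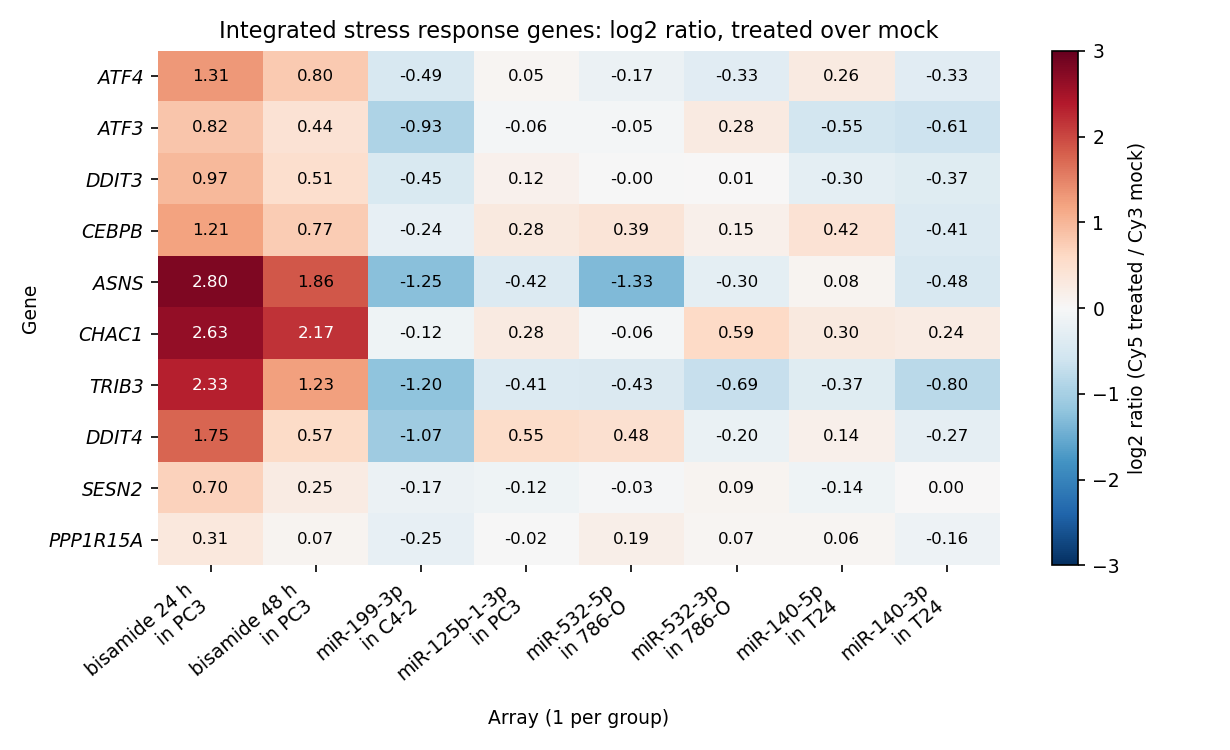
Log2 ratio of treated (Cy5) over mock (Cy3) RNA for the 10 genes (rows) on the 8 arrays (columns), with red above 0 and blue below 0 and each value printed in its cell. The bisamide columns are above 0 throughout, ASNS reaches 2.80 at 24 h, and the miR-199-3p column is below 0 throughout.

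Among the effectors, ASNS, asparagine synthetase, makes asparagine from aspartate and glutamine. Its level on the log2 scale was 10.35, 10.80 and 10.95 in the 3 PC3 mocks, and 13.14 and 12.67 in the cells given bisamide for 24 h and 48 h. The treated cells lay above every mock. The log2 ratio within the array was 2.80 at 24 h, a 6.94-fold higher signal and rank 2 of 19241 genes, and 1.86 at 48 h, rank 3 of 19020. In raw signal the 24 h array read 1459.77 in Cy3 and 20512.81 in Cy5. Raw Cy5 also exceeded raw Cy3 for all 10 genes on the miR-125b-1-3p array. There ATF4 read 6381.94 and 12725.07 at a log2 ratio of 0.053, so raw values hold a dye difference as well.

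CHAC1, an enzyme that breaks down glutathione, stood next to it. Its level was 7.65, 7.95 and 7.96 in the 3 mocks and 10.27 and 10.13 after 24 h and 48 h. The log2 ratio was 2.63 at 24 h (6.18-fold, rank 3) and 2.17 at 48 h (4.52-fold, rank 2), so that CHAC1 was the highest of the 10 genes at the later time. The second CHAC1 probe was dim, with a raw Cy3 signal of 27.73 on the 24 h array, and gave 0.99 and 0.73.

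TRIB3 is a pseudokinase that binds AKT and ATF4 and holds ATF4 targets in check. Its level was 10.65, 10.91 and 11.51 in the mocks and 12.98 and 12.14 in the treated cells. The log2 ratio was 2.33 at 24 h (5.03-fold, rank 6) and 1.23 at 48 h (2.35-fold, rank 13). The treated cells lay above all 3 mocks at each time, although the mocks themselves spread over 0.86.

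DDIT4 (REDD1) and SESN2 (sestrin 2) restrain mTORC1, the kinase complex that drives growth when nutrients are ample. The level of DDIT4 was 6.55, 6.92 and 7.75 in the mocks and 8.30 and 7.49 in the treated cells. The log2 ratio was 1.75 at 24 h (rank 9) and 0.57 at 48 h (rank 114). At 48 h the treated level lay below the mock of the miR-125b-1-3p array. Its probe has 10 spots on the array, like that of CEBPB, and the SD between the spots of these probes was 0.020 to 0.11 over the 8 arrays.

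SESN2 had a level of 6.07, 6.09 and 6.12 in the mocks and 6.76 and 6.33 in the treated cells, with log2 ratios of 0.70 and 0.25. These levels sit near 5.64, the log2 of the offset of 50 that was added to every signal, which compresses ratios of dim genes. With an offset of 0 the SESN2 ratio was 1.55 at 24 h and 0.67 at 48 h, and by the ratio of the scanner software 1.67 and 0.66. The size of the SESN2 ratio thus depended on the handling of the background, while its direction did not.

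Among the transcription factors, ATF4 was bright in every sample. Its level was 12.32, 12.55 and 12.50 in the mocks and 13.63 and 13.35 after bisamide, with log2 ratios of 1.31 (2.48-fold, rank 17) and 0.80 (1.74-fold, rank 31). CEBPB, which pairs with ATF4 on composite elements, had ratios of 1.21 and 0.77, with levels of 8.65, 8.66 and 9.22 in the mocks and 9.86 and 9.44 in the treated cells. For ATF4 and CEBPB no mock reached a treated level.

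DDIT3 (CHOP), which promotes cell death under lasting stress, had log2 ratios of 0.97 (rank 37) and 0.51 (rank 169). Its mocks read 7.01, 7.22 and 7.39 and the treated cells 7.99 and 7.72. ATF3, a repressor and activator induced by many stresses, had ratios of 0.82 (rank 59) and 0.44 (rank 265). The ATF3 mocks read 6.61, 6.40 and 7.36 and the treated cells 7.43 and 6.84, so the 48 h value fell within the range of the mocks. The other ATF3 probes were dim in PC3, 1 of them not above background, and gave 0.082, 0.0012 and 0.11 at 24 h, against 0.82 for the brightest. The mean over the 4 probes was 0.25.

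PPP1R15A (GADD34), the feedback phosphatase subunit, was the lowest of the 10. Its mocks read 6.87, 6.83 and 6.75 and the treated cells 7.18 and 6.90. The log2 ratio was 0.31 at 24 h (rank 746) and 0.075 at 48 h (rank 5924). Like SESN2, it lies near the offset.

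**Figure D2:**
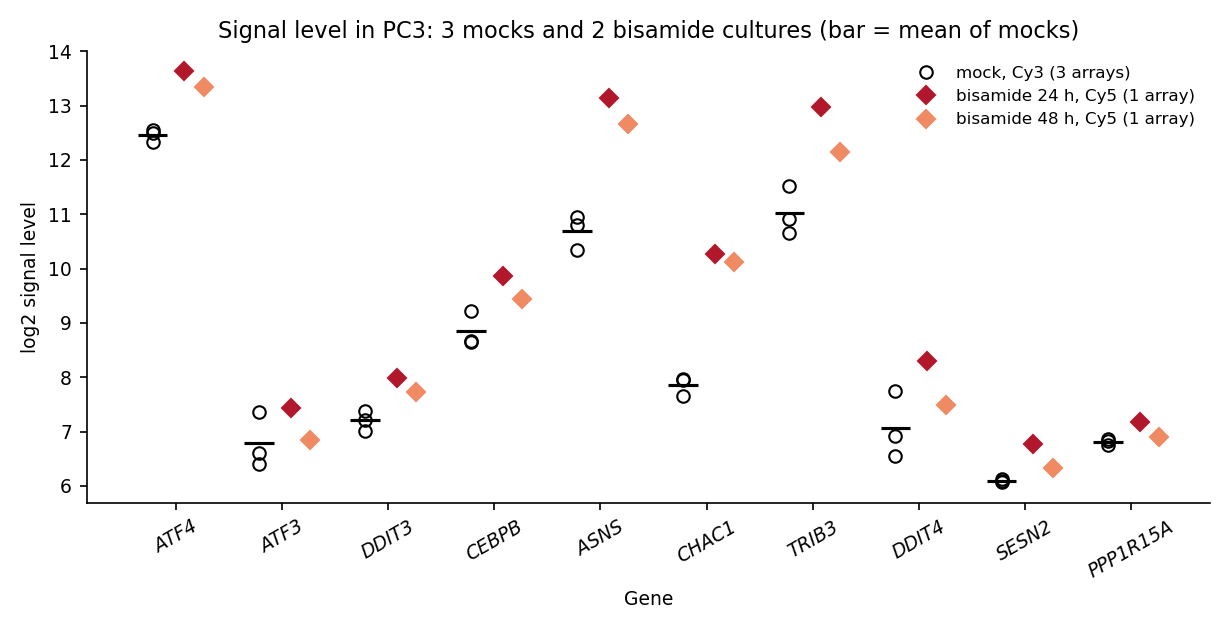
Log2 signal level of the 10 genes in PC3, with open circles for the Cy3 mocks of the 3 PC3 arrays, a bar for their mean, and filled diamonds for the Cy5 signal of the cells given bisamide for 24 h (red) and 48 h (orange). At 24 h all 10 treated values lie above all 3 mocks, and at 48 h 8 of 10 do, the exceptions being ATF3 and DDIT4.

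The ratio of each gene was higher at 24 h than at 48 h. The 24 h ratio was 2.26 times the 48 h ratio for DDIT4, 2.14 times for TRIB3 and 1.91 times for ASNS, and 1.18 times for PPP1R15A, the smallest. Each array has a mock of its own, so the difference holds that of the mocks as well. For ASNS the mock of the 48 h array was higher, and the treated levels alone differed by 0.47. For ATF3 the order was the other way, with treated levels 0.60 apart and ratios 0.38 apart. The treated levels of all 10 genes were higher at 24 h, by 0.15 (CHAC1) to 0.84 (TRIB3). With 1 array at each time the difference between the times was not tested.

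The mean of the 3 PC3 mocks was also put in place of the mock of the same array, a choice made after the data were seen. ASNS then had a log2 ratio of 2.44 at 24 h and 1.97 at 48 h, CHAC1 2.42 and 2.27, and TRIB3 1.96 and 1.12. DDIT4 dropped to 1.23 and 0.42, below the size of 1.5 at 24 h, and ATF3 to 0.64 and 0.046. Which mock is used therefore decides whether DDIT4 is counted at 24 h.

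The miRNA arrays gave 60 values for the 10 genes, of which 49 lay within 0.5 of 0. None passed a log2 ratio of 1.5 in either direction. With miR-199-3p in C4-2 the share of all genes beyond 1.5 was 0.102% below and 0.0191% above, with miR-125b-1-3p in PC3 0.00535% each way, with miR-532-5p in 786-O 0.0893% and 0.0128%, and with miR-532-3p 0.142% and 0.00648%. With miR-140-5p in T24 it was 0.0851% below and 0.0567% above, and with miR-140-3p 0.0057% each way. At a log2 ratio of 1.0 there were 4 values, all below 0. The shares of all genes above 1.0, in the same order of arrays, were 0.115%, 0.112%, 0.357%, 0.0907%, 0.119% and 0.0913%. Those below -1.0 were 0.536%, 0.0642%, 0.447%, 0.55%, 0.323% and 0.0856%. The highest value on any miRNA array was 0.59, for CHAC1 with miR-532-3p. That signal was dim, at 44.13 in raw Cy3 and 94.97 in raw Cy5, so the offset compresses its ratio. By the ratio of the scanner software it was 1.34, past 1.0.

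Of the values past 1.0, 3 came from miR-199-3p in C4-2 (84 of 15686 genes, 0.536%, were below -1.0 there) and 1 from miR-532-5p in 786-O (0.447%). The mature sequences of these miRNAs are shown, from RefSeq, with the seed (bases 2 to 8) in capitals. They share no seed. Target sites in the mRNAs of the 10 genes were not analysed here.
miR-199-3p: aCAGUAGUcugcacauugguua
miR-532-5p: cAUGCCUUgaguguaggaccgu

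With miR-199-3p all 10 genes were below 0, and their median was -0.47 beside 0.020 over all genes. Of all genes 56.4% were above 0 on this array. ASNS had a log2 ratio of -1.25, TRIB3 -1.20, DDIT4 -1.07 and ATF3 -0.93. ATF4 (-0.49), DDIT3 (-0.45), PPP1R15A (-0.25), CEBPB (-0.24), SESN2 (-0.17) and CHAC1 (-0.12) were nearer to 0. The 3 other ATF3 probes gave -0.73, -0.07 and -0.60. Of the 4 genes past 1.5 at 24 h of bisamide, ASNS, TRIB3 and DDIT4 were the lowest here, and CHAC1 was the nearest to 0.

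The size of this shift and its side of 0 depended on the dye correction. In raw signal, Cy5 exceeded Cy3 for 5 of the 10 genes on this array, ATF4 for example reading 14486.24 in Cy3 and 20312.0 in Cy5. Loess turns such values by comparing them with other genes of the same brightness. With median centring in place of loess the median of the 10 was 0.044, with 5 genes above 0, beside 0.23 over all genes, so that it lay 0.18 below the median of all genes. ASNS, TRIB3 and DDIT4 were then at -0.38, -0.38 and -0.27. All 10 stayed below 0 under the ratio of the scanner software, with an offset of 0, with plain background subtraction, without background correction and with the mean over probes.

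With miR-532-5p in 786-O, ASNS had a log2 ratio of -1.33, the lowest value of any of the 10 genes on any array. The other genes ranged from TRIB3 at -0.43 to DDIT4 at 0.48, and the median was -0.040. The opposite strand of the same precursor, miR-532-3p, gave -0.30 for ASNS and -0.69 for TRIB3, with a median of 0.040. The arrays of these strands carry the same mock code in their array names, so their ratios share a mock.

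With miR-140-3p in T24 the median was -0.35 and 8 of 10 genes were below 0, from TRIB3 at -0.80 to CHAC1 at 0.24. Median centring turned this median to 0.41, beside 0.34 over all genes. With miR-140-5p the median was 0.069 and 6 of 10 were above 0, from ATF3 at -0.55 to CEBPB at 0.42. With miR-125b-1-3p in PC3 the median was 0.016, with 5 genes on each side of 0, from ASNS at -0.42 to DDIT4 at 0.55. TRIB3 was below 0 on all 6 miRNA arrays, from -0.37 to -1.20, but with median centring it was above 0 on 3 of them, at 0.38 with miR-125b-1-3p, 0.64 on the miR-140-5p array and 0.20 on that of miR-140-3p, whereas under loess CHAC1 was above 0 on 4 of them.

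The mock channels show how much of each transcript these lines held without treatment. The mock levels were compared with limma between all 6 pairs of lines, with p-values adjusted over the 22627 genes tested in each pair. Lone mocks are assumed to vary like those of PC3, the source of the spread, and the labels do not say that the mocks are separate cultures, so the p-values measure the spread between these samples alone. Of the 3 PC3 mocks, 2 are also the denominators of the bisamide ratios by which the genes were chosen. A low mock raises its ratio, so the choice may favour genes that were low in these mocks. The calls and p-values of PC3 against other lines use all 3 mocks and are not independent of the choice. For that reason the third, from the miR-125b-1-3p array, is given on its own as well. In bulk RNA, fewer expressing cells and less RNA per cell cannot be told apart.

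C4-2 held the highest mock level of 8 of the 10 genes, the exceptions being CEBPB and PPP1R15A. Its 1 mock channel is also the denominator of the miR-199-3p ratios, so the mock levels and those ratios are not independent. Against PC3, 9 of the 10 were called, all higher in C4-2, where 46.5% of all genes were called, 25.4% higher in C4-2 and 21.1% higher in PC3. The median difference of the 10 was 2.07 toward C4-2, stored as -2.0707 for PC3 minus C4-2, against -0.0040 over all genes. All 10 were also higher in C4-2 than in the mock of the miR-125b-1-3p array, by 0.22 (PPP1R15A) to 5.33 (ATF3). The 10 reference genes went the other way, with 7 higher and 1 lower in PC3.

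DDIT4 and ATF3 differed most. DDIT4 was at 13.03 in C4-2 and at 7.07 ± 0.61 (SD, n = 3) in PC3, a 61.9-fold difference (log2 -5.95 for PC3 minus C4-2, SE 0.50, adjusted p = 0.00257 by limma, and 1.54e-05 to 0.0160 over the alternatives). ATF3 was at 12.69 and 6.79 ± 0.51 (SD, n = 3), a 59.7-fold difference (log2 -5.90, SE 0.42, adjusted p = 0.00179 by limma, and 6.80e-06 to 0.0122). DDIT3 was at 11.21 in C4-2 against 7.21 ± 0.19 (SD, n = 3), with a 95% interval of PC3 minus C4-2 from -4.45 to -3.55 and an adjusted p of 0.000681 by limma, and ASNS at 13.79 against 10.70 ± 0.31, 8.53-fold apart, with 0.00262. The dim PC3 signals of DDIT4 and ATF3 lie near the offset, which compresses such differences.

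The smaller differences kept the same direction. TRIB3 was at 13.21 in C4-2 and 11.03 ± 0.44 in PC3, ATF4 at 14.42 and 12.46 ± 0.12, CHAC1 at 9.77 and 7.85 ± 0.18, CEBPB at 10.18 and 8.85 ± 0.33, and SESN2 at 7.17 and 6.09 ± 0.03. The adjusted p-values of these genes by limma lay between 0.00113 (SESN2) and 0.0224 (CEBPB). The call of CEBPB was lost without PC3 replicate 1 or 2 and with median centring of Cy3 (adjusted p up to 0.787 by limma), and that of TRIB3 with median centring (0.0679). PPP1R15A, at 6.97 and 6.81 ± 0.06, did not pass, and the 95% interval of PC3 minus C4-2 ran from -0.36 to 0.05. With median centring it was higher in PC3, by 0.40 (adjusted p = 0.0207 by limma).

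The untreated level in C4-2 was near to or above the treated level in PC3. For 8 of the 10 genes the C4-2 mock (Cy3) lay above the PC3 cells given bisamide for 24 h (Cy5), among them ASNS at 13.79 against 13.14 and TRIB3 at 13.21 against 12.98. CHAC1 was lower in the C4-2 mock, at 9.77 against 10.27, and so was PPP1R15A. Channels of different dyes are set side by side here. Within Cy5, the C4-2 cells given miR-199-3p lay above the bisamide cells for 6 of the 10 genes, with ATF3 4.33, DDIT4 3.65 and DDIT3 2.77 higher and TRIB3 0.97 and ASNS 0.60 lower. These comparisons rest on 1 sample a side and were not tested.

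**Figure D3:**
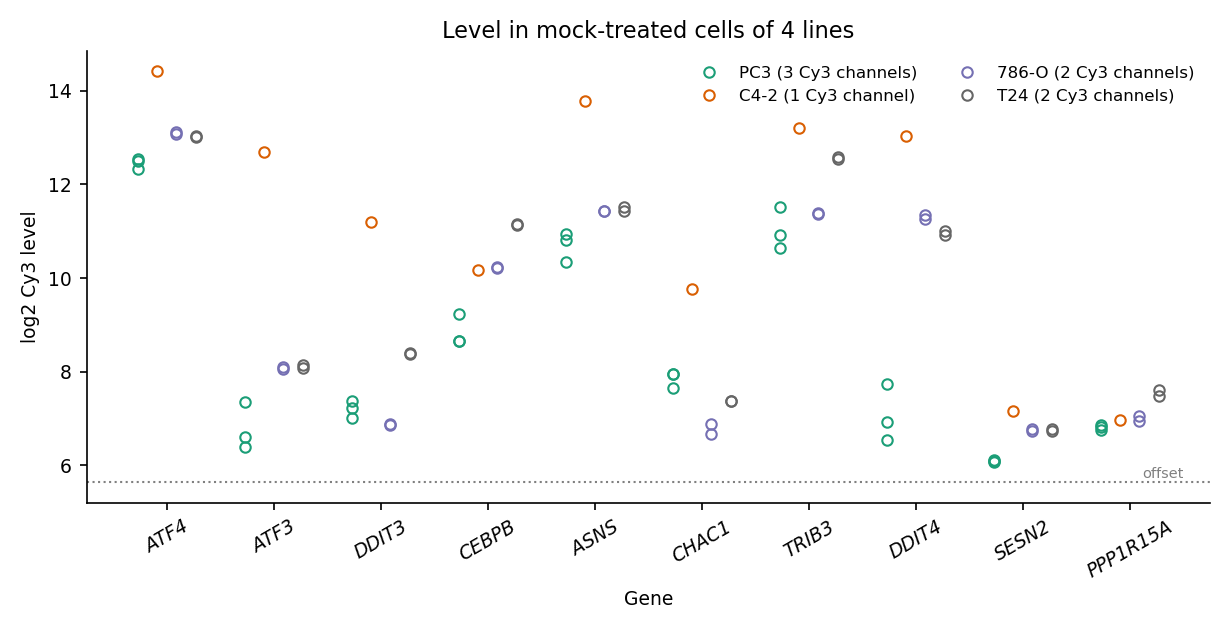
Log2 Cy3 level of the 10 genes in mock cells of PC3 (3 channels), C4-2 (1 channel), 786-O (2 channels) and T24 (2 channels), each circle standing for 1 channel and the dotted line for the offset at 5.64. C4-2 lies highest for 8 genes, and the 786-O and the T24 pairs nearly coincide.

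Between the other lines fewer of the genes differed. Against 786-O, PC3 differed in 5 of the 10 (35.6% of all genes were called, 15.9% higher in PC3 and 19.7% higher in 786-O). CHAC1 was higher in PC3 by 1.07 (adjusted p = 0.0131 by limma), and ATF4, CEBPB, SESN2 and DDIT4 were lower. The calls of CEBPB, ATF4 and SESN2 in this pair were lost in 4, 2 and 1 alternatives. The split of this pair depended on the scaling: with median centring of Cy3, 5 genes were called (52% of all genes), 4 of them higher in PC3, and ATF4 turned to 0.52 higher in PC3 (adjusted p = 0.0282 by limma). Against T24, PC3 differed in 7 of the 10 (30.2% of all genes, 13.2% higher in PC3 and 17.0% higher in T24), all lower in PC3, and with median centring 1 of 6 called was higher in PC3 (29.7% of all genes called). Against the mock of the miR-125b-1-3p array alone, 7 of the 10 were lower in PC3 than in 786-O (CHAC1, DDIT3 and TRIB3 were not) and 9 were lower than in T24 (CHAC1 was not), with DDIT4 at -3.56 and -3.22. Between PC3 and T24 the ATF4 and TRIB3 calls were lost in 6 alternatives each. DDIT4 was 18.8-fold lower in PC3 than in 786-O and 14.8-fold lower than in T24, the largest of these differences. C4-2 differed from 786-O in 7 of the 10, all higher in C4-2 (37.7% of all genes called, 19.3% higher in C4-2 and 18.4% in 786-O). From T24 it differed in 7 (38.2%, with 19.8% higher in C4-2 and 18.4% in T24), with 6 higher in C4-2 and PPP1R15A higher in T24. Against 786-O the call of TRIB3 was lost in 5 alternatives and that of SESN2 in 3, and the count fell to 5 without PC3 replicate 1 (27.7% of all genes called), without replicate 2 (26.6%) and with median centring (20.5%). Against T24 the calls of SESN2 and PPP1R15A were lost in 2 alternatives each.

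786-O and T24 differed in 2 of the 10, where 24.4% of all genes were called, 12.7% higher in 786-O and 11.7% in T24. DDIT3 was at 6.88 in 786-O and 8.39 in T24, 2.84-fold apart (adjusted p = 0.0155 by limma), and PPP1R15A was 1.47-fold higher in T24, at 7.55 (adjusted p = 0.0247 by limma). The PPP1R15A call was lost in 4 alternatives, with an adjusted p of up to 0.0800 by limma, and the DDIT3 call without PC3 replicate 2, where limma called none of the 10 (10.1% of all genes) and 2 had an unadjusted p under 0.05. The pairs of Cy3 channels that carry the same mock code differed by 6e-05 to 0.22 in 786-O and by 0.012 to 0.12 in T24 over the 10 genes, and each pair was counted as 1 sample. For ASNS the difference between 786-O and T24 was -0.04, with a 95% interval from -0.93 to 0.86, and for ATF3 it was -0.04, from -1.45 to 1.38.

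The order of the lines differed from gene to gene. For ATF4, ATF3 and ASNS the order was C4-2, then T24 and 786-O, which were not called apart, then PC3. PC3 was below 786-O and T24 by a called difference for ATF4, but not for ATF3 and ASNS. For DDIT3 the order was C4-2, T24, PC3 and 786-O, with the last pair not called apart, and for CHAC1 C4-2, PC3, T24 and 786-O, with neither PC3 and T24 nor T24 and 786-O called apart. For TRIB3 the neighbours C4-2 and T24, T24 and 786-O, and 786-O and PC3 were not called apart, while C4-2 was called above 786-O and PC3, and T24 above PC3. For CEBPB T24 was highest at 11.14, with 786-O and C4-2 next and not called apart from it or from each other. PC3 was lowest, but its calls below 786-O and C4-2 were lost in 4 and 3 alternatives. For DDIT4 C4-2, 786-O and T24 were not called apart from one another, and each was called above PC3. For SESN2 C4-2 was highest, 786-O and T24 were not called apart, and PC3 was lowest, while for PPP1R15A T24 was highest and the other lines were not called apart.

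Other genes of the pathway were read in lists. The eIF2 kinases, eIF2 and eIF2B subunits and their regulators (18 genes on the array) are the machinery upstream of ATF4. None of them passed a log2 ratio of 1.0 in either direction with bisamide, and their median was 0.060 at 24 h and 0.0023 at 48 h. Of all genes 0.182% and 0.0946% passed 1.0 at these times. The kinases EIF2AK1, EIF2AK2, EIF2AK3 and EIF2AK4 had ratios of 0.14, -0.096, -0.033 and 0.15 at 24 h. EIF2S2, the beta subunit of eIF2, was the furthest from 0, at 0.58 and 0.45, and OMA1 (0.27) and IMPACT (0.25) followed at 24 h. The kinases are controlled at the protein, which these arrays do not read.

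The medians of downstream lists were higher. All lists were chosen with earlier results of these data known, so nothing is read from differences between them. Of 10 amino acid transporters, 3 passed 1.0 at 24 h and 1 at 48 h, all 10 were above 0 at both times, and the median was 0.75 and 0.50. SLC7A11, the cystine and glutamate exchanger, had 1.71 and 0.73, SLC7A5, a carrier of large neutral amino acids, 1.37 and 1.02, and SLC6A9, a glycine transporter, 1.05 and 0.71. Of 12 genes for serine, folate and other amino acid synthesis, 5 passed 1.0 at 24 h and 3 at 48 h, with a median of 0.71 and 0.41 and 11 above 0 at each time. PSAT1 (1.70 and 1.31) and PHGDH (1.56 and 1.14), enzymes of serine synthesis, and CBS (1.43 and 1.09), of transsulfuration, led this list. None of the genes in either list passed -1.0 with bisamide. Of all genes 0.182% passed 1.0 at 24 h and 0.0946% at 48 h, and 0.0156% and 0.021% passed -1.0. Above 0 were 57.1% and 57.0% of all genes.

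Of 12 other ATF4 targets and secreted factors, 11 were measured. A ratio of 1.0 was passed by 2 at 24 h and by 1 at 48 h, beside 0.182% and 0.0946% of all genes. The median of this list was 0.80 and 0.50. NUPR1, a stress-induced chromatin protein, had a log2 ratio of 1.82 at 24 h and was 2.82-fold higher at 48 h, GDF15, a secreted stress hormone, had log2 ratios of 1.46 and 0.32, and ADM2 0.96 and 0.69. The PC3 mocks of GDF15 were far apart, at 9.59, 11.58 and 12.58, and its treated cells read 11.05 at 24 h and 11.90 at 48 h. The 24 h level of GDF15 thus lay below 2 of the 3 mocks, so its ratio of 1.46 rests on the low mock of that array. The other genes named from these 3 lists lay above all 3 PC3 mocks at both times.

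Relatives of the 10 genes mostly stayed near 0. Of 12 paralogs, 10 of them measured, 1 passed 1.0 at each time, beside 0.182% and 0.0946% of all genes. This was JDP2, with 1.71 and 1.39, and the median of the paralogs was 0.013 and 0.018. JDP2 is a leucine zipper protein close to ATF3 in sequence. CEBPG, a partner of ATF4, had 0.85 and 0.58, and CHAC2, the relative of CHAC1, had -0.42 and -0.17. The ratio of JDP2 was above that of ATF3 at each time.

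The medians of the lists of other stress pathways lay between -0.15 and 0.0098 with bisamide. These lists too were chosen with earlier results known, so nothing is read from the contrast. Of all genes 0.182% passed 1.0 at 24 h and 0.0946% at 48 h. None of 14 endoplasmic reticulum genes of the IRE1 and ATF6 arms passed 1.0 in either direction, with a median of -0.052 and -0.15. HERPUD1 had 0.81 and 0.15, XBP1 0.59 and 0.10 and the chaperone HSP90B1 -0.48 and -0.73. None of 10 immediate early genes (9 measured at 24 h and 8 at 48 h, medians 0.0098 and -0.15, with MYC at -0.15 and -0.51, JUN at -0.35 and -0.36 and KLF6 at 0.31 and -0.10) and none of 10 p53 targets (medians -0.015 and -0.014, with BBC3 at 0.43 and 0.14, GADD45A at 0.34 and 0.25 and BAX at -0.12 and -0.28) passed it. Of 10 reference genes none passed it either, with medians of -0.075 and -0.11, and HPRT1, GUSB and B2M furthest from 0 at -0.30, -0.28 and -0.23 at 48 h. With median centring the medians of all genes moved to 0.35 and 0.34 on the bisamide arrays, and those of the reference genes lay 0.46 and 0.50 above them.

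**Figure D4:**
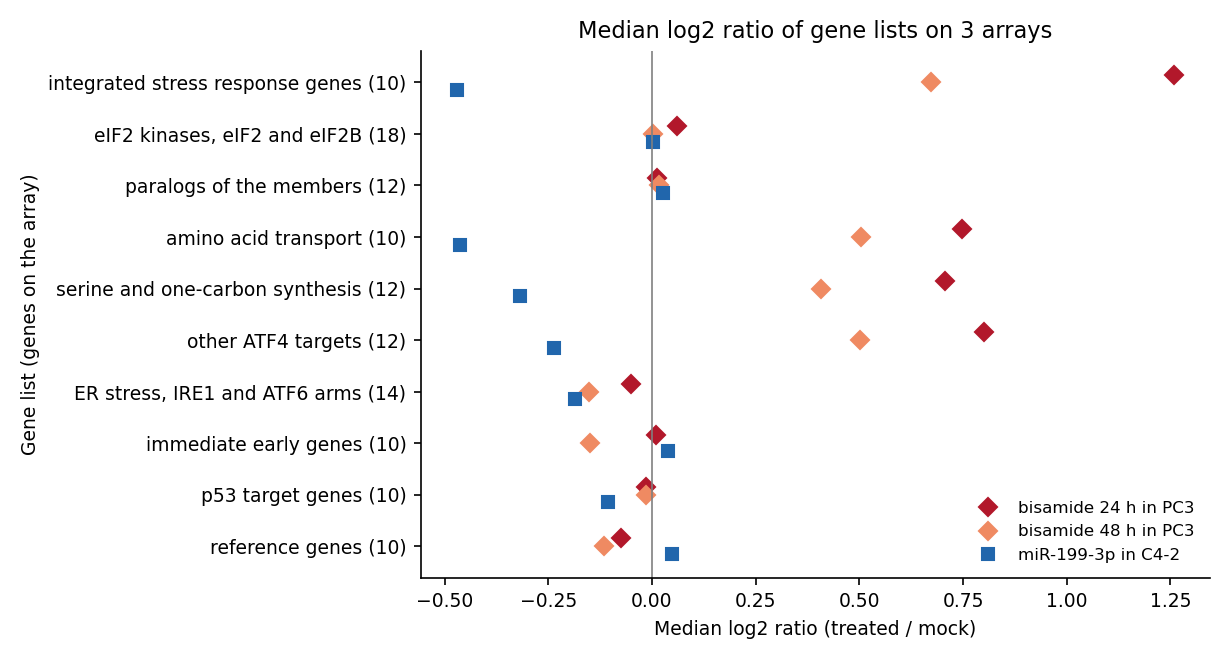
Median log2 ratio of treated over mock RNA for 10 gene lists (the number of genes on the array in brackets) with bisamide at 24 h (red diamonds), bisamide at 48 h (orange diamonds) and miR-199-3p in C4-2 (blue squares). The 10 genes described here, the transporters, the synthesis genes and the other ATF4 targets lie to the right with bisamide and to the left with miR-199-3p, while the medians of the remaining lists lie between -0.19 and 0.06.

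With miR-199-3p in C4-2 the same lists were mostly below 0. The transporters had a median of -0.46 with none of the 9 measured above 0, the synthesis genes -0.32 with 1 of 12 above 0, and the other ATF4 targets -0.24 with 1 of 12 above 0. Of all genes 56.4% were above 0. SLC7A11 was at -1.63, NUPR1 at -1.23, GDF15 at -1.18, PSAT1 at -0.89 and SLC7A5 at -0.88, whereas JDP2 was at 0.058. Among the synthesis genes, 1 that is not named here lay below -1.5, where 0.102% of all genes did. Under median centring, the list medians relative to all genes were -0.30, 0.072 and -0.051, so the place of the synthesis genes below all genes depended on loess.

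In the mock of C4-2 these lists stood above PC3 as well. The synthesis genes were higher in C4-2 in 11 of 12 and the other ATF4 targets in 10 of 12, where 25.4% of all genes were higher in C4-2, and the transporters in 5 of 10, with 2 higher in PC3. The eIF2 list was split, with 4 of 18 higher in C4-2 and 6 higher in PC3. Of the immediate early genes 2 of 10 were higher in C4-2 and 6 in PC3.

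The genes whose ratios over the 8 arrays were most like the mean of the 10 were sought among 849 genes measured in both channels of all arrays with a range of at least 1. By Pearson's r they were FLJ43315 (0.99), SARS, PCK2 and ADM2 (0.98 each), TUBE1 and SLC6A9 (0.97 each), and RBCK1, HERPUD1, CARS and SLC7A5 (0.96 each). SARS and CARS charge tRNA with serine and cysteine, and PCK2 is the mitochondrial phosphoenolpyruvate carboxykinase. FLJ43315, at 1.14 and 0.58 with bisamide, is named on the array as a pseudogene of asparagine synthetase, so its probe may share signal with ASNS and its value is uncertain. The arrays share a slide, and the bisamide pair weighs most in such a correlation. Among the 10 genes, the r of each with the mean of the other 9 ran from 0.77 (PPP1R15A) to 0.99 (TRIB3). The genes were chosen by their ratios on the bisamide arrays, which enter each r, so nothing is read from these values.

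Among the pathway lists, the letters TGATGNAA were found in the promoter windows of 5 of 9 transporters with a window (SLC3A2, SLC7A1, SLC1A4, SLC1A5 and SLC38A1), and in 3 of 10 paralogs (JDP2, CEBPG and PPP1R15B). They were found in 1 gene each of the eIF2 list (PPP1R15B), the synthesis genes (MTHFD1L), the other ATF4 targets (FGF21) and the endoplasmic reticulum genes (HERPUD1). No window of the immediate early, p53 or reference genes held them.

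The probes lie at these places in GRCh37, the build of the array files. The probe of ATF4 is on chromosome 22 from 39918577 to 39918636, that of ASNS on chromosome 7 from 97481461 to 97481520, and that of CHAC1 on chromosome 15 from 41248631 to 41248690. The probe of TRIB3 is on chromosome 20 from 378107 to 378166, that of CEBPB on the same chromosome from 48808989 to 48809048, and that of DDIT4 on chromosome 10 from 74035363 to 74035422. On chromosome 1 lie the probe of SESN2, from 28608194 to 28608253, and the brightest of ATF3, from 212793856 to 212793915. The probes of DDIT3 (chromosome 12, 57911200 to 57911526) and PPP1R15A (chromosome 19, 49378127 to 49378901) are 60 bases long but span 327 and 775 bases of the genome, as a probe across an intron does. Exons and untranslated regions were not annotated here.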

How the data were processed

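Cy3 marked the mock RNA and Cy5 the treated RNA, per the labels. Scanning by the authors used Agilent Feature Extraction 11.5.1.1 per the file headers, and the deposited files give spot intensity, local background intensity and flags. They also hold a log10 ratio, background-subtracted and dye-normalized by that software. The deposited series table holds the same log10 ratio, with a largest difference of 0, and its scale and direction were read from this match.

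Intensities were corrected by normexp with an offset of 50 and normalized by loess within each array in limma 3.58.1 (R 4.3.3), which gave log2 ratios from the deposited intensities. Control spots and outlier spots (126 to 181 an array) were left out and the spots of a probe averaged, leaving 58201 probes. Mock levels are the Cy3 part of these values after Aquantile normalization, fitted by lmFit and eBayes over 6 mocks (3 of PC3 and 1 each of C4-2, 786-O and T24) with Benjamini-Hochberg adjustment over genes above background in Cy3 on at least 1 array. A call was an adjusted p under 0.05. The fit had 2 residual and 2 prior degrees of freedom. On each array 15442 to 19241 genes were well above background in both channels, and no spot was saturated.

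The genes, lists, motif and tests were chosen with earlier results of these data known. Genes named besides the 10 were the eIF2 kinases, up to 3 of each list with the largest ratio in bisamide, and the 10 with the highest Pearson r. Further genes of the C4-2 lists and of the motif counts were named from those counts. The marker lists held 5 genes each. The scripts were tested on simulated data. Alternatives were other background corrections, median centring, the scanner's ratio, the series table, the mean over probes, the ratio minus the median of the miRNA arrays, no filter on dim probes and a threshold of 1.0. For mock levels they were quantile normalization, median centring, offset 0, plain subtraction, no filter, the mean over probes, all 8 channels as samples, and leaving out each PC3 mock. The mean of the 3 PC3 mocks and leaving out C4-2 were added after the data were seen.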

Additional observations from a re-analysis of the deposited data

How the results depend on the processing

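Median centring in place of loess raised the count of the 10 genes past 1.5 from 4 to 7 at 24 h and from 2 to 4 at 48 h of bisamide (0.359% and 0.326% of all genes), and their median to 2.12 and 1.28. On the miRNA arrays the median of the 10 became 0.0436 for miR-199-3p, 0.526 for miR-125b-1-3p, 0.697 for miR-140-5p and 0.409 for miR-140-3p, with all-gene medians of 0.23, 0.31, 0.27 and 0.34 there and 0.35 and 0.34 for bisamide. The mean over probes left 1 gene past 1.5 at 48 h, since it averages CHAC1 with its dim probe. A threshold of 1.0 gave 3 lower genes for miR-199-3p and 1 for miR-532-5p. In all, 69 of 75 medians moved by less than the spread of the mocks, while 49 of 200 ratios of single genes were counted as moved. Of the counts, 80 of 83 of higher genes and 81 of 83 of lower genes stayed within 1.5 times. Under the main settings none of the 10 genes passed -1.5 on any array, and none passed 1.5 on a miRNA array. Most of these comparisons of counts thus start from 0 and say little about stability.

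For mock levels, 54 of 63 counts stayed within 1.5 times. Taking all 8 channels as samples called 9 genes between PC3 and 786-O (57.9% of all genes) and 5 between 786-O and T24 (51.4%). Between 786-O and T24, median centring called 6 genes (35.8% of all genes) and plain subtraction 1 (21.9%). Leaving out a PC3 mock in turn gave 4 to 8 genes between PC3 and 786-O (8 without replicate 3, the mock of the miR-125b-1-3p array), 4 to 9 between PC3 and T24 (4 without replicate 2, that of the 48 h array) and 0 to 4 between 786-O and T24 (1, 0 and 4 without replicates 1, 2 and 3). Without replicates 1, 2 and 3 in turn, the share of all genes called was 22%, 21.1% and 42.6% in the first pair, 18.2%, 16.5% and 37.2% in the second and 11.7%, 10.1% and 32.6% in the third. Of 600 single differences, 522 were counted as the same, 41 lost a call and 31 gained one. Those counted as the same include differences that changed sign but were called in neither setting. PPP1R15A for C4-2 minus 786-O, for example, was never called and changed sign in 4 alternatives. The 6 that turned with a call in at least 1 of the settings did so under median centring of Cy3. They were PPP1R15A to 0.40 for PC3 minus C4-2 and 0.46 for PC3 minus 786-O, ATF4 to 0.52 for PC3 minus 786-O and -0.72 for 786-O minus T24, and SESN2 to -0.0747 for C4-2 minus T24 and -0.38 for 786-O minus T24. The cause was not tested. No paired analysis was possible because no group has a second array. Signals near the offset limit the size of a ratio. They include SESN2 and PPP1R15A, ATF3 and DDIT4 in PC3, and CHAC1 and DDIT3 in 786-O.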
